A study of Mus musculus with 3 samples.

Results

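Xbp1 and 9 further genes of the unfolded protein response were followed in cells of the mouse left ventricle. The genes were Xbp1, Ern1, Stub1, Hspa5, Atf4, Atf6, Ddit3, Dnajb9, Sdf2l1 and Edem1. They were taken by symbol from the 30360 genes of the count matrices, and all 10 were found. Their counts were read in each library and in each cell class. The mice, labelled C56Bl6, gave 3 libraries, 1 per group, each a pool of 4 samples. The Control group had a control diet for 10 weeks, and its label names no vector. The HFpEF-scr group had 6 weeks of the diet labelled High-Fat + L-NAME and 4 weeks of AAV-scramble-sh. The HFpEF-FoxO1-sh group had the same 6 weeks of diet and 4 weeks of AAV-FoxO1-sh. Runs of 3 values follow this order of groups throughout. HFpEF stands for heart failure with a preserved ejection fraction, which this diet is used to model, and L-NAME blocks nitric oxide synthases. AAV is an adeno-associated virus that here carried a short hairpin RNA, and the cell type its promoter or capsid favours is not given in the sources used here. The Control library therefore differs from HFpEF-scr in diet, its labelled length and vector together, and these cannot be told apart.

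The unfolded protein response is the signalling that follows when unfolded proteins build up in the endoplasmic reticulum (ER). It has 3 arms, which start from the membrane sensors IRE1 (gene Ern1), Atf6 and PERK (gene Eif2ak3). IRE1 cuts a short stretch out of the Xbp1 mRNA, and the shifted reading frame gives the active factor Xbp1s. Atf6 is freed by proteolysis, and PERK signalling raises translation of Atf4, which drives Ddit3 (CHOP). Chaperones and degradation factors such as Hspa5, Sdf2l1, Dnajb9 and Edem1 are targets of these arms. In hearts of this diet model, the IRE1-Xbp1s arm has been linked to FoxO1 through Stub1, a ubiquitin ligase also known as CHIP, chiefly in cardiomyocytes.

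The stretch that IRE1 removes is shown because these libraries count Xbp1 without seeing it. It was located in the GENCODE M21 transcripts as 26 bases between a pair of loops with the letters CNGCAGC, and lies at chr11:5524282-5524307 on the plus strand of mm10, in the coding sequence. It is in capitals here within 80 bases, chr11:5524255-5524334.
Xbp1: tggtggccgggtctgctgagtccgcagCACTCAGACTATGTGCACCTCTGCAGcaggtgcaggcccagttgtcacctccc
In the transcript Xbp1-201, of 2129 bases, 1286 bases follow the removed stretch. With the last loop base unspecified, a further pair with the same spacing was found at bases 461 to 486, which is not the known intron. The kit reads the 3' end of each transcript, so the UMI counts (unique molecular identifiers, 1 per captured molecule) do not separate spliced from unspliced Xbp1. Every Xbp1 value below is a sum over both forms.

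Promoter stretches of the 3 genes that differed most between libraries are shown next, the 200 bases before the RefSeq start of each on GRCm38.p6. They are Hspa5 (chr2:34771890-34772089, plus strand), Sdf2l1 (chr16:17132384-17132583, minus strand) and Xbp1 (chr11:5520441-5520640, plus strand). Capitals mark an ER stress response element (ERSE: CCAAT, 9 bases, CCACG), the site bound by Atf6 and Xbp1s.
Hspa5: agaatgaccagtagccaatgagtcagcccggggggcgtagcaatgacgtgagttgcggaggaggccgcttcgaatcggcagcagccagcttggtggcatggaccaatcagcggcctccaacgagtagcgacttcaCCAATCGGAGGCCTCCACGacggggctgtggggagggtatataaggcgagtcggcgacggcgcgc
Sdf2l1: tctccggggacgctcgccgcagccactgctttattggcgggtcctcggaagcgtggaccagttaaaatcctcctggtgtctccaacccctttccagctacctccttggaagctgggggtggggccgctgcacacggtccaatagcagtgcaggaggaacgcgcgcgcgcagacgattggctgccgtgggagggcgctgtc
Xbp1: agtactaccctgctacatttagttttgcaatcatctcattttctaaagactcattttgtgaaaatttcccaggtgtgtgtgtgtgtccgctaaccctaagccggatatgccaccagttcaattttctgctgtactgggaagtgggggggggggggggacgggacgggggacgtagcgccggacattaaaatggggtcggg
Both strands of 300 bases, 250 before to 50 after the start, were searched in the 9 members with a RefSeq promoter. The exact ERSE was found in Hspa5 alone, at bases -65 to -47, and in 0.119% of 32851 promoters. No member held the other motifs searched: ERSE-II (ATTGG, 1 base, CCACG, in 0.0365% of all promoters), UPRE (TGACGTGG, 0.676%), the Atf4 element AARE (TGATG, 1 base, AA, 3.97%), the FoxO site GTAAACA (3.65%) and TGACGTCA (1.79%). This says only that these letters are not in these windows. Atf6 was not searched.

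The libraries held 27453 to 36179 barcodes and 144561934 to 154385813 UMIs. The median mitochondrial share of a barcode was 24.6%, 22.1% and 11.7%. With a limit of 20%, 12757, 14567 and 16854 cells were kept, with median mitochondrial shares of 12.9%, 12.6% and 9.32% and median depths of 6889, 6520 and 6607 UMIs. Of the barcode sequences, 335 occurred in both Control and HFpEF-scr, 238 in Control and HFpEF-FoxO1-sh and 264 in the HFpEF libraries, or 37, 50 and 61 among kept cells. Clustering gave 34 clusters. Markers named all but 2 of them, as 17 classes, and 12 classes had at least 50 cells in every library. Fibroblast-like cells were by far the most (8465, 9312 and 10661), ahead of macrophage-like (1182, 1629 and 2081), endothelial-like (449, 650 and 534) and smooth-muscle-like cells (395, 357 and 364). Names carry the sense of "like" by markers from here on. Cardiomyocytes, which a strainer removed, numbered 29, 22 and 105 and were not compared. Their cluster was led by Sln, Myl7, Myl4 and Nppa, an atrial-like set, though the tissue is given as left ventricle.

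Foxo1, the gene the hairpin targets, had 61.1, 56.2 and 59.7 CPM over all kept cells. CPM is a gene's UMIs per 1e6 UMIs of the same cells. Relative to HFpEF-scr, Foxo1 in the library labelled HFpEF-FoxO1-sh stood at 1.06 (95% interval 1.03 to 1.10), so it was not lower there. In fibroblasts this ratio was 1.09. In endothelial cells, with 66.4, 80.4 and 63.4 CPM, it was 0.789 (0.685 to 0.908). The rule given below called 6.02% of genes lower in that class and comparison. Each group is a single pooled library, so no test was possible and no p-value is given. Intervals cover counting error only, and each comparison is between libraries. To be called higher or lower, a gene needed a 1.2-fold difference in CPM, a 95% interval of the ratio without 1 and 20 or more UMIs over both libraries. The comparison of HFpEF-scr with Control and that of HFpEF-FoxO1-sh with HFpEF-scr share the HFpEF-scr library.

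In fibroblasts, the Xbp1 level was 173 CPM in Control, 135 CPM in HFpEF-scr, and 151 CPM in the library labelled HFpEF-FoxO1-sh. The intervals of the 3 levels did not overlap, and HFpEF-scr was the lowest. Xbp1 lies on chromosome 11 from 5520659 to 5525893 (mm10). The HFpEF-scr to Control ratio was 0.780 (0.758 to 0.802), a call of lower. The HFpEF-FoxO1-sh to HFpEF-scr ratio of 1.11 (1.08 to 1.15) stayed under the 1.2-fold limit. Ern1, which encodes the sensor that splices Xbp1, lies on chromosome 11 from 106394650 to 106487852. Its levels were 13.03, 13.5 and 13.7 CPM, with overlapping intervals. Ern1 ratios were 1.04 (0.940 to 1.14) and 1.02 (0.927 to 1.11), so a difference beyond about these bounds in Ern1 RNA was not seen at this depth.

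**Figure D1:**
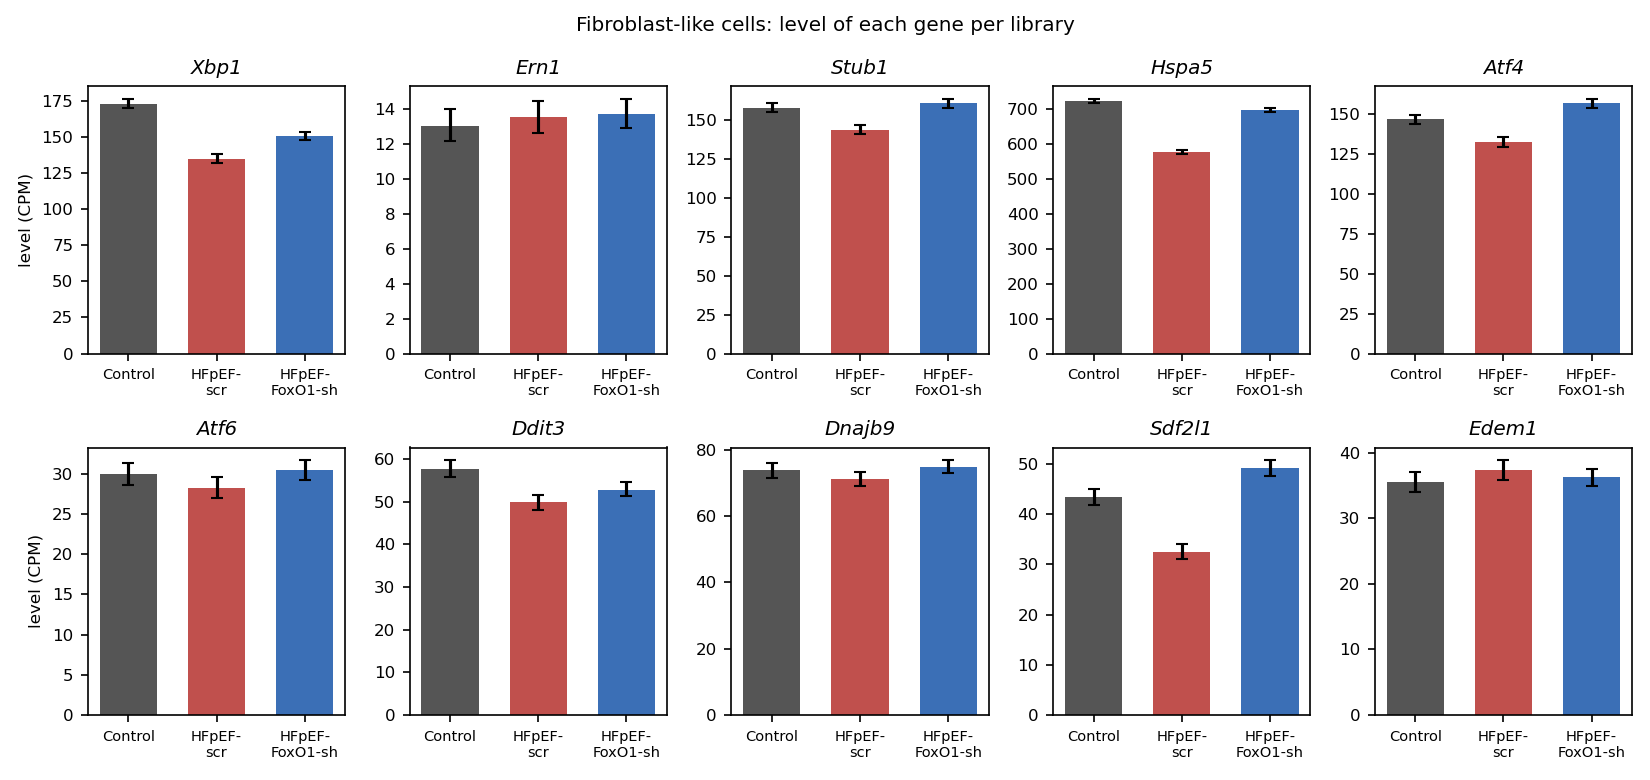
Level of each of the 10 genes in fibroblast-like cells in CPM (vertical axes from 0, 1 scale per gene) for the 3 libraries; bars are summed counts and lines exact Poisson 95% intervals, which cover counting error only. Xbp1, Hspa5 and Sdf2l1 were lowest in HFpEF-scr, while Ern1 and Edem1 differed little between libraries.

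Hspa5 encodes BiP, the main ER chaperone, which also holds the sensors inactive. It lies on chromosome 2 from 34771970 to 34777547. Its fibroblast level was 724 CPM in Control, 578 CPM in HFpEF-scr, and 698 CPM in the library labelled HFpEF-FoxO1-sh. HFpEF-scr was again lowest, and the other libraries lay close together. The ratio of HFpEF-scr to Control was 0.799 (0.788 to 0.810). The ratio of HFpEF-FoxO1-sh to HFpEF-scr was 1.21 (1.19 to 1.22), just past the limit, and Hspa5 lost that call with a mitochondrial limit of 10% (log2 ratio 0.18) or with CPM of non-mitochondrial UMIs (0.22).

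Sdf2l1, an ER protein that works with Hspa5 and its DnaJ partners, lies on chromosome 16 from 17130138 to 17132383. Its fibroblast level was 43.4 CPM in Control, 32.5 CPM in HFpEF-scr, and 49.1 CPM in the library labelled HFpEF-FoxO1-sh. It was the member with the widest differences in fibroblasts, and it was highest in HFpEF-FoxO1-sh. The ratio of HFpEF-scr to Control was 0.750 (0.708 to 0.795), and that of HFpEF-FoxO1-sh to HFpEF-scr 1.51 (1.43 to 1.60).

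Dnajb9 (ERdj4), a co-chaperone of Hspa5 that also restrains IRE1, lies on chromosome 12 from 44205559 to 44210326. Its fibroblast level was 73.8, 71.1 and 74.9 CPM. Edem1, which directs misfolded glycoproteins to degradation, lies on chromosome 6 from 108828641 to 108859356 and had 35.5, 37.3 and 36.3 CPM. Both are Xbp1 targets, and neither was called. Their HFpEF-scr to Control ratios were 0.963 (0.924 to 1.00) for Dnajb9 and 1.05 (0.992 to 1.12) for Edem1, so the bounds lie inside the 1.2-fold limit.

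Atf6, the sensor of its own arm, lies on chromosome 1 from 170704674 to 170867771 and had 29.9, 28.2 and 30.4 CPM in fibroblasts. Atf4, the factor downstream of PERK, lies on chromosome 15 from 80255184 to 80257541 and had 146, 132 and 157 CPM. Ddit3 (CHOP), an Atf4 target linked to cell death under ER stress, lies on chromosome 10 from 127290774 to 127296288 and had 57.8, 49.9 and 52.8 CPM. All 3 were lowest in HFpEF-scr, and none was called. The widest ratios were 0.863 (0.823 to 0.906) for Ddit3 in HFpEF-scr over Control and 1.18 (1.15 to 1.22) for Atf4 in HFpEF-FoxO1-sh over HFpEF-scr. Atf4 is set largely by translation, which RNA counts do not show.

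Stub1, the ubiquitin ligase placed between Xbp1s and FoxO1, lies on chromosome 17 from 25830505 to 25833404. Its fibroblast level was 158, 144 and 161 CPM. The ratios were 0.910 (0.884 to 0.936) and 1.12 (1.09 to 1.15), both under the limit. Over all kept cells Stub1 had 142, 125 and 142 CPM, with ratios of 0.882 (0.861 to 0.903) and 1.14 (1.11 to 1.16).

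Counted together, 3 of the 10 members were lower and 0 higher in fibroblasts of HFpEF-scr than of Control. The same rule called 6.6% of 14937 genes lower and 5.05% higher. The members' median log2 ratio was -0.14, against -0.01 for all genes, and 8 of 10 members lay below 1, against 53.6% of all genes. From HFpEF-scr to HFpEF-FoxO1-sh, 2 members were higher and 0 lower, where 6.92% of 15056 genes were called higher and 5.07% lower. The members' median was 0.13, against 0.03 for all genes, and 9 of 10 members lay above 1, against 59.996% of genes. Over all kept cells the counts were the same, 3 lower and 0 higher, then 2 higher and 0 lower. There the rule called 8.81% of genes lower and 7.33% higher in the first comparison, and 8.55% higher and 6.51% lower in the next. Over all kept cells, Xbp1 had 148, 117 and 130 CPM, Hspa5 644, 521 and 632 CPM, and Sdf2l1 52.8, 41.7 and 57.1 CPM. Hspa5 lost its call of lower over all kept cells with a mitochondrial limit of 50% (log2 ratio -0.26), and its call of higher with a limit of 10% (0.22). In such a mixture, a change in the share of a cell class and a change in RNA per cell cannot be told apart.

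Fibroblasts formed 7 clusters with at least 100 cells in every library, and these share their libraries, so they are not replicates. Xbp1 was below 1 in HFpEF-scr over Control in 7 of 7 clusters, with ratios of 0.711 to 0.880, and was called in 5. The lowest ratio was in the cluster led by Smoc2 and Htra3, where Xbp1 went from 195 to 139 CPM. The ratio nearest 1 was in the cluster led by Igfbp3 and Myoc, from 151 to 133 CPM. The cluster led by Wif1 and Prg4 held the least Xbp1, with 120, 101 and 103 CPM in the 3 libraries. Hspa5 was below 1 in 7 of 7 (0.751 to 0.835, called in 6), as was Sdf2l1 (0.619 to 0.875, called in 6).

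From HFpEF-scr to HFpEF-FoxO1-sh, Sdf2l1 was called higher in 7 of 7 fibroblast clusters, with ratios of 1.32 to 1.74. Its level went from 50.4 to 74.1 CPM in the cluster led by Pi16 and Gfpt2, which held the most Sdf2l1 in every library. Hspa5 was above 1 in 7 of 7 (1.11 to 1.26) and called in 3. Xbp1 was above 1 in 7 of 7 (1.02 to 1.17) and called in 0. Stub1 was below 1 in all 7 in the first comparison (0.872 to 0.935) and above 1 in all 7 in the next (1.07 to 1.19), with 0 calls in either. Ern1, Edem1, Atf6 and Dnajb9 had ratios on both sides of 1 in both comparisons.

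**Figure D2:**
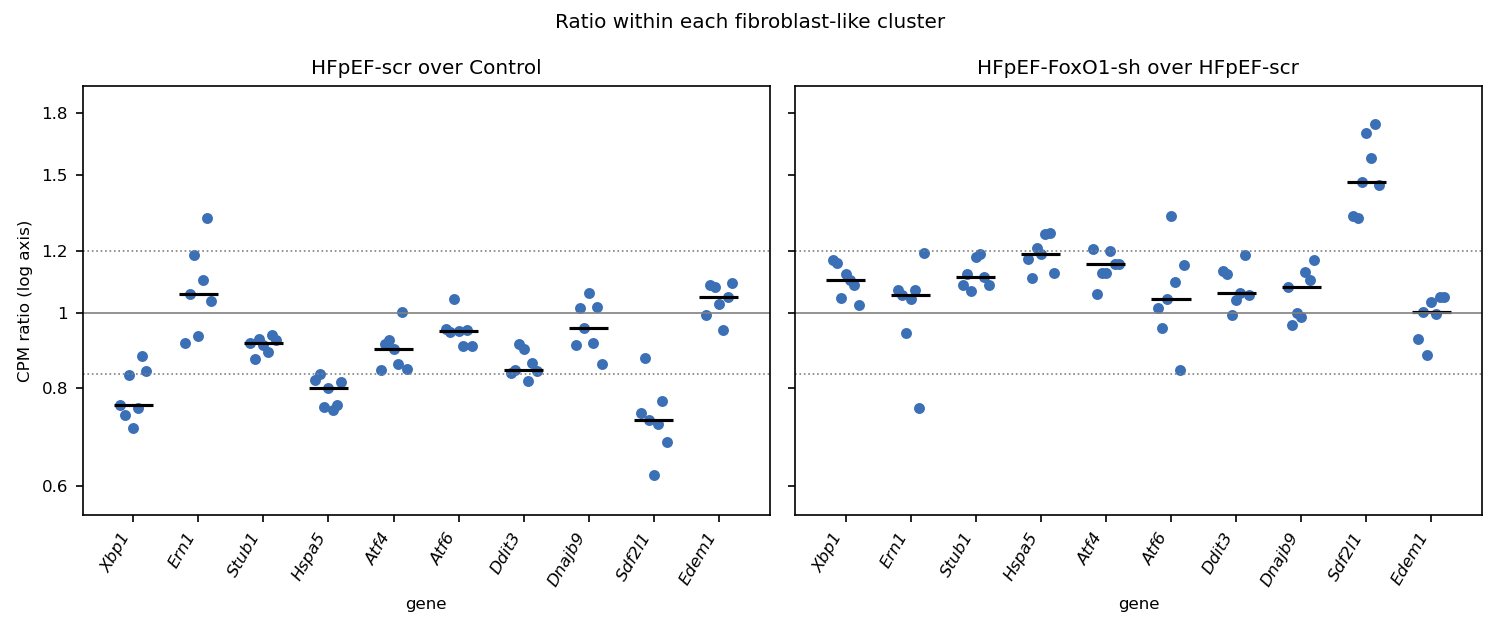
CPM ratio of each gene (log axis) within each of 7 fibroblast-like clusters (points) for the 2 comparisons; black bars are medians, dotted lines the 1.2-fold limits. Sdf2l1 lay at 0.619 to 0.875 in HFpEF-scr over Control and at 1.32 to 1.74 in HFpEF-FoxO1-sh over HFpEF-scr.

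The libraries differed in mitochondrial share, so fibroblasts were also read in bands of 5% to 10%, 10% to 15% and 15% to 20% mitochondrial UMIs, with CPM of non-mitochondrial UMIs. Fibroblasts below 5% were left out of these bands, since Control held only 21. Xbp1 was called lower in HFpEF-scr than in Control in 3 of 3 bands, with ratios of 0.771 to 0.798. Sdf2l1 was too (0.697 to 0.773), and Hspa5 was in 2 of 3 (0.778 to 0.834). From HFpEF-scr to HFpEF-FoxO1-sh, Sdf2l1 was called higher in 2 of 3 bands (1.24 to 1.44), Hspa5 in 0 (1.10 to 1.16) and Xbp1 in 0 (1.09 to 1.12). Thus Hspa5 stayed above 1 in each band but under the limit. Over all kept cells, the 3 members lower in HFpEF-scr were called in 3 of 3 bands. The members called higher did not keep their direction there. In the band of 15% to 20%, the ratio to HFpEF-scr was 0.907 (0.795 to 1.03) for Sdf2l1 and 0.974 (0.939 to 1.01) for Hspa5. For Xbp1, which was not called higher over all kept cells, it was 0.858 (0.792 to 0.928). Sdf2l1 was called higher in 2 of the 3 bands and Hspa5 in 0. In cells of all kinds below 5%, of which HFpEF-scr held only 59, Hspa5 (1.25) and Xbp1 (1.41) were called higher. Sdf2l1 (1.12, 0.838 to 1.51) was not. In the fibroblasts below 5%, with 32 in HFpEF-scr, Sdf2l1 (1.90, 1.11 to 3.51) and Hspa5 (1.59) were called higher, and Xbp1 (1.38) was not. Levels also moved with the band. Ddit3 in Control fibroblasts was 61.2, 64.7 and 76.1 CPM from the lowest band to the highest, and Xbp1 188, 197 and 211 CPM.

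**Figure D3:**
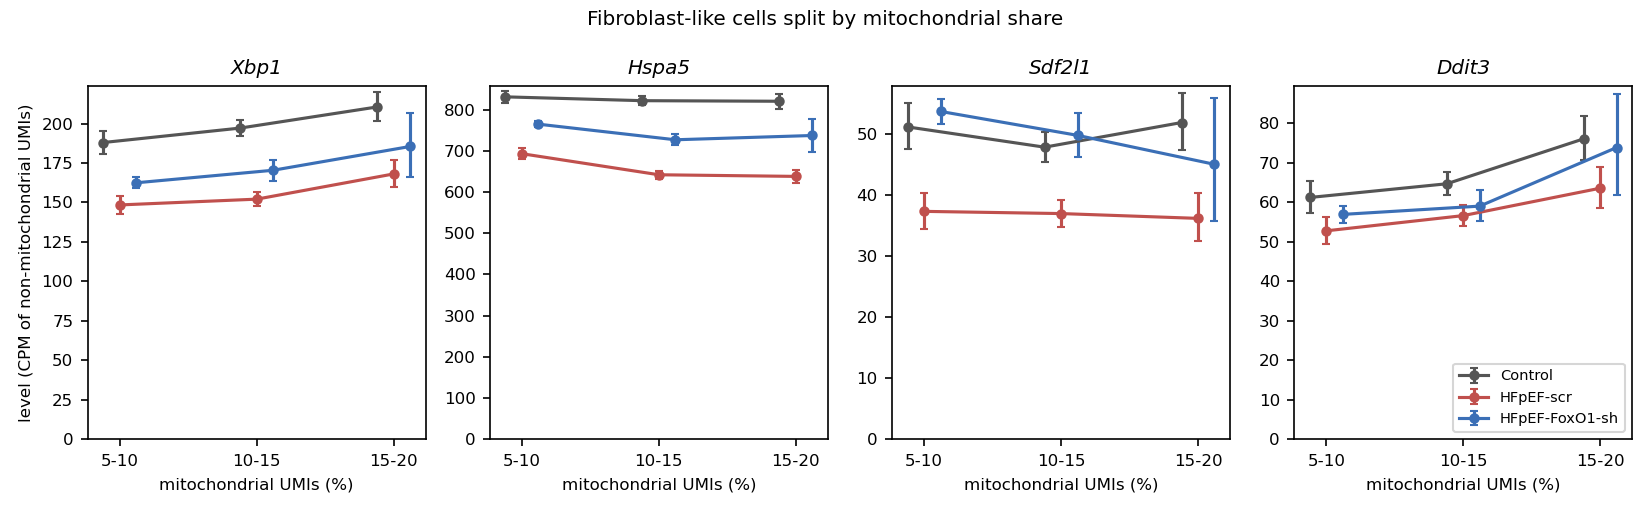
Level of 4 genes in fibroblast-like cells (CPM of non-mitochondrial UMIs, axes from 0) in 3 bands of mitochondrial share, per library, with exact Poisson 95% intervals. Xbp1, Hspa5 and Sdf2l1 lay lower in HFpEF-scr than in Control in every band, and Ddit3 was highest in the band of 15% to 20%.

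Barcodes over the 20% limit with enough UMIs and genes numbered 7108, 6885 and 3202. Against kept cells of the same library, their level of Hspa5 was lower (ratios 0.564 to 0.710), as were Sdf2l1 (0.439 to 0.669) and Xbp1 (0.688 to 0.750), while Ddit3 was higher (1.11 to 1.31). Among these barcodes, Xbp1 had 117, 99.9 and 98.8 CPM of non-mitochondrial UMIs, with ratios of 0.850 (0.799 to 0.904) and 0.989 (0.905 to 1.08), and was not called. The members called higher in kept cells of HFpEF-FoxO1-sh lay below 1 here, Sdf2l1 at 0.868 (0.734 to 1.02) and Hspa5 at 0.932 (0.892 to 0.974), and neither was called. The calls made here were of Stub1, lower in HFpEF-scr (0.802) and higher in HFpEF-FoxO1-sh (1.21), and of Edem1, lower in HFpEF-FoxO1-sh (0.765). The part of cell damage in the results was not tested.

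Macrophages had 149, 112 and 138 CPM of Sdf2l1. Sdf2l1 was lower in HFpEF-scr (0.754, 0.697 to 0.815) and higher in HFpEF-FoxO1-sh (1.23, 1.14 to 1.32). Hspa5 had 622, 515 and 618 CPM and was lower in HFpEF-scr (0.828, 0.798 to 0.859). So 2 members were lower and 0 higher, where 6.93% of genes were called lower and 4.59% higher. In the next comparison 1 was higher and 0 lower, where 6.74% were higher and 5.7% lower. Xbp1 in macrophages had 95.9, 84.8 and 84.8 CPM, and its ratio of 1.00 (0.918 to 1.09) for HFpEF-FoxO1-sh over HFpEF-scr bounds a difference under the limit. The Sdf2l1 call of higher was lost with CPM of non-mitochondrial UMIs, after thinning each cell to 2000 UMIs and with a mitochondrial limit of 10% (log2 ratio 0.15). The Hspa5 call of lower was lost after thinning (-0.21).

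Endothelial cells had 89.9, 81.4 and 99.5 CPM of Xbp1 and 17.1, 12.3 and 17.95 CPM of Sdf2l1. Only Sdf2l1 was lower in HFpEF-scr (0.716, 0.524 to 0.978), 1 member lower and 0 higher beside 6.83% and 5.77% of genes. That call was lost with doublets kept, and the log2 ratio was -1.11 with a mitochondrial limit of 10% and -1.46 after thinning. In HFpEF-FoxO1-sh, Sdf2l1 (1.46, 1.07 to 1.99) and Xbp1 (1.22, 1.08 to 1.38) were higher, 2 members beside 8.77% of genes, and 0 were lower beside 6.02%. With a mitochondrial limit of 10% or of 50%, 0 members were higher. The Sdf2l1 log2 ratio ranged from 0.029 with the limit of 50% to 1.43 after thinning.

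Smooth muscle cells had 88.8, 63.9 and 81.1 CPM of Xbp1, with the lowest level in HFpEF-scr as in fibroblasts. Its ratio was 0.720 (0.605 to 0.856) in HFpEF-scr and 1.27 (1.06 to 1.52) in HFpEF-FoxO1-sh. Xbp1 was the only member called, 1 lower and 0 higher beside 4.38% and 6.66% of genes, then 1 higher and 0 lower beside 4.77% and 7.13%. The call of higher was lost with a mitochondrial limit of 10% and after thinning. Sdf2l1 had only 41 to 49 UMIs per library in this class, and its ratios of 1.19 (0.782 to 1.799) and 0.806 (0.519 to 1.25) were too wide to read.

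**Figure D4:**
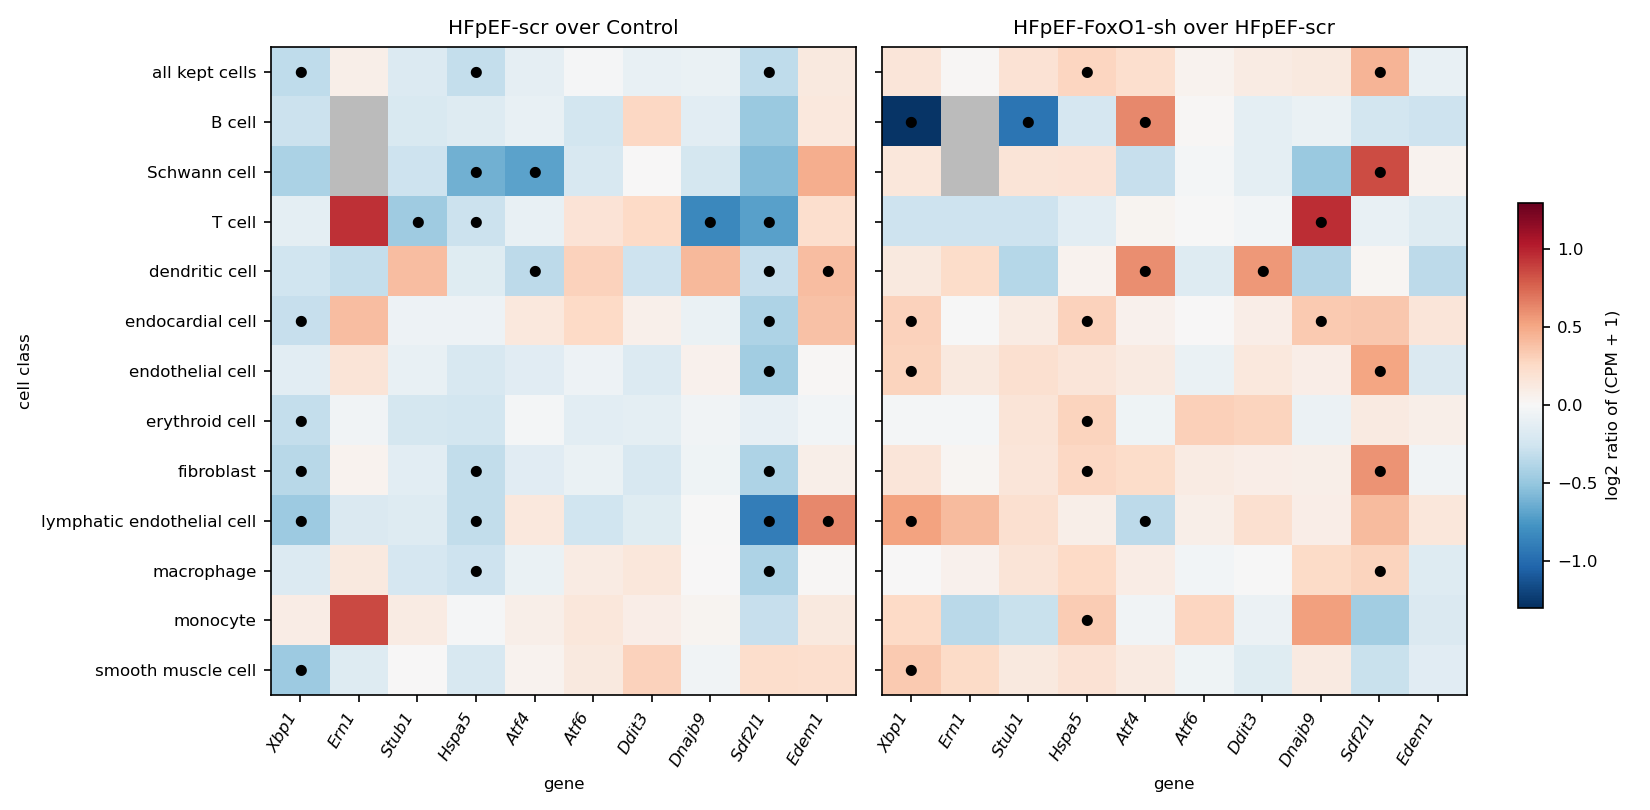
Log2 ratio of CPM + 1 (colour) for each gene (columns) in all kept cells and in 12 marker-named classes (rows), for the 2 comparisons; dots mark calls of higher or lower, and grey marks under 20 UMIs. Xbp1 was called lower in HFpEF-scr in fibroblast, endocardial, erythroid, lymphatic endothelial and smooth muscle cells, with ratios of 0.717 to 0.811.

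For the smaller classes the share of all genes called was not computed, so the calls below stand without that background. Across these classes, the HFpEF-scr library had lower Xbp1 than Control in endocardial (0.811), erythroid (0.807) and lymphatic endothelial cells (0.717). Sdf2l1 was lower in T (0.608), dendritic (0.814), endocardial (0.750) and lymphatic endothelial cells (0.511), and Hspa5 was lower in lymphatic endothelial (0.802), T (0.826) and Schwann cells (0.650). Atf4 was lower in Schwann (0.615) and dendritic cells (0.789). In T cells Stub1 (0.725) and Dnajb9 (0.549, on 68 UMIs in Control and 43 in HFpEF-scr) were lower. Edem1 was called higher in dendritic (1.33, 1.03 to 1.72) and lymphatic endothelial cells (1.58, 1.03 to 2.44), the only calls of higher in that comparison. From HFpEF-scr to HFpEF-FoxO1-sh, Hspa5 was higher in endocardial (1.23), erythroid (1.22) and monocyte cells (1.26). Sdf2l1 was higher in Schwann cells (1.82, 1.11 to 3.10), on 23 and then 57 UMIs. Dnajb9 was higher in T (1.98) and endocardial cells (1.27), and Ddit3 in dendritic cells (1.498). Stub1 was lower in B cells (0.511), where 63.6% of all genes lay below 1 and their median log2 ratio was -0.22. Calls of Xbp1 and Atf4 in this comparison went in both directions between classes. Erythroid cells held 30244 to 35161 CPM of the 16 fibroblast markers, against 51903 to 52806 CPM in fibroblasts. B cells held 27906, 24367 and 3815 CPM of them. The part of fibroblast RNA in the values of both classes was not tested.

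Levels also differed between classes, on the CPM scale and for 1 gene at a time. Xbp1 was highest in monocytes, with a mean over the 3 libraries of 222 CPM (range 199 to 254), then in fibroblasts (153 CPM, 135 to 173). Neither range overlapped its neighbour's. From endocardial cells (105 CPM) down to smooth muscle cells (77.9 CPM) each class overlapped the next. T cells were lowest at 36.5 CPM (30.9 to 41.1), apart from smooth muscle cells. Xbp1 is known for its part in plasma cells, a class not found here.

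Sdf2l1 followed another order. Dendritic cells had 191 CPM (177 to 217) and macrophages 133 CPM (112 to 149), each range apart from the next, and smooth muscle cells had the least (12.9 CPM). Monocytes, highest in Xbp1, had 45.1 CPM of Sdf2l1. Monocytes also had the most Edem1 (88.8 CPM) and Atf6 (73.7 CPM) but the least Stub1 (49.6 CPM). Stub1 was highest in fibroblasts at 154 CPM, with ranges that overlapped those of smooth muscle cells (149 CPM). Hspa5 was highest in fibroblasts (667 CPM) and lowest in lymphatic endothelial cells (282 CPM). Atf4 was highest in B cells (232 CPM, 193 to 298), and Ddit3 in Schwann cells (105 CPM), each apart from the next class. By mean, Ern1 (25.3 CPM, 20.6 to 27.6) was highest in endocardial cells, but its range overlapped that of monocytes (16.8 to 31.3), which were higher in HFpEF-scr. Dnajb9 (79.3 CPM) also had its highest mean in endocardial cells, with a range that overlapped that of fibroblasts. The highest ranges of Hspa5 and Edem1 overlapped those of macrophages and dendritic cells, in that order.

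**Figure D5:**
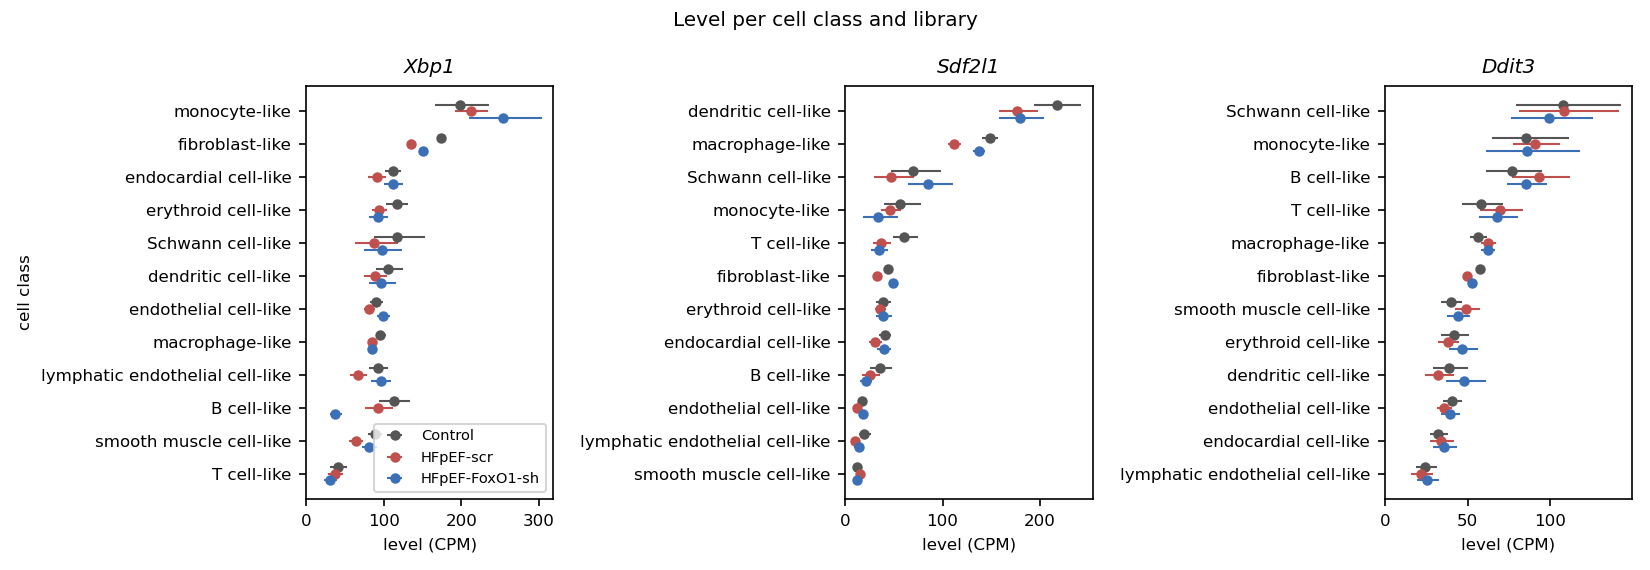
Level in CPM (horizontal axes from 0) of Xbp1, Sdf2l1 and Ddit3 in 12 marker-named classes, ordered by their mean; points are libraries and lines exact Poisson 95% intervals. Xbp1 was highest in monocyte-like cells (199 to 254 CPM) and Sdf2l1 in dendritic-cell-like cells (177 to 217 CPM).

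Over the 36 combinations of 12 classes and 3 libraries, the genes most like Xbp1 in log2 (CPM + 1) were Csgalnact2 (Pearson r 0.87), Idh1 (0.86) and Ifitm3 (0.83), among 8954 genes. Combinations of 1 library share its depth and free RNA, so these are descriptions. Erythroid cells, and B cells of Control and HFpEF-scr, also held many fibroblast marker UMIs, as given above. Their part in these correlations was not tested. The most like other members were Tcta for Stub1 (0.94), Cd44 for Edem1 (0.93), Cyp27a1 and Abi1 for Hspa5 and Atf6 (0.85 each), Pepd for Sdf2l1 (0.85), Irs2 for Ddit3 (0.83), Tmem164 for Ern1 (0.82), Txndc11 for Atf4 (0.80) and Gtf3c2 for Dnajb9 (0.79). Within the members, Xbp1 went with Atf6 at 0.57 and with Stub1 at 0.11.

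Genes of the pathway were also read from lists by role in fibroblasts, beside the shares of all genes given above. The lists here and below hold members too, whose calls are thus counted again. Members were 2 of the chaperones and foldases, 3 of the Xbp1-dependent genes, 2 of the sensors and 2 of the Atf4 and Ddit3 targets. Of 22 ER chaperones and foldases, 3 were lower and 0 higher in HFpEF-scr than in Control: Hspa5, Sdf2l1 and Manf, a secreted ER stress protein, which had 279 and 197 CPM (ratio 0.705, 0.689 to 0.722). The list's median log2 ratio was 0.01. Hsp90b1 (GRP94), another main ER chaperone, had 794 and 867 CPM and was not called. Of 24 Xbp1-dependent secretory genes only Xbp1 itself was lower and 0 were higher, with a list median of -0.03. Of 18 genes of ER-associated degradation 1 was lower, Syvn1 (0.816), which encodes the ligase Hrd1. Of 12 stress sensors and their proteases 2 were lower, Creb3l1 (0.743) and Eif2ak1 (0.798), and 0 higher. None of 8 substrates cut by IRE1 was called in that comparison.

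From HFpEF-scr to HFpEF-FoxO1-sh, 5 of 22 chaperones and foldases were higher in fibroblasts and 0 lower, with a median of 0.12 against 0.03 for all genes. They were Hspa5, Sdf2l1, Creld2 (30.6 to 38.2 CPM, ratio 1.25), Fkbp2 (173 to 213 CPM, 1.23) and the disulfide isomerase Pdia6 (298 to 365 CPM, 1.23). Xbp1-dependent secretory genes had 0 calls in 24 and degradation genes 1 higher in 18, the lectin Os9 (1.22). Scara3 (0.813) was the only lower gene among 8 IRE1 substrates.

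Targets of Atf4 and Ddit3 had calls on both sides. In HFpEF-scr, 6 of 28 were lower than in Control and 1 higher, with a median of -0.14. Mthfd2, a mitochondrial folate enzyme, had 28.5 and 17.4 CPM (ratio 0.610). Slc7a5, an amino acid transporter, had 6.09 and 3.55 CPM (0.583), and Phgdh, of serine synthesis, 25.4 and 19.7 CPM (0.774). The 1 higher was Fgf21, at under 1 CPM (5.28, 1.79 to 21.1). In HFpEF-FoxO1-sh, 10 of 27 were higher than in HFpEF-scr and 1 lower, with a median of 0.15. Atf3 went from 43.0 to 73.3 CPM (1.71), Ppp1r15a from 111 to 155 CPM (1.40), Trib3 from 5.74 to 8.32 CPM (1.45) and Asns from 2.87 to 4.28 CPM (1.49). Both Atf3 and Ppp1r15a also respond to tissue dissociation, and the summed level of 10 immediate early genes moved with them, at 6132, 5728 and 7551 CPM. Among the members, Sdf2l1, Atf4, Atf6, Stub1 and Dnajb9 had the same order of libraries in fibroblasts. Xbp1, Hspa5 and Ddit3 were instead highest in Control, and Ern1 and Edem1 lowest there. The part of the immediate early genes in these results was not tested. Other classes differed in the Atf4 and Ddit3 targets of HFpEF-FoxO1-sh over HFpEF-scr, beside the shares of all genes given above. In macrophages 3 of 25 were higher and 5 lower, with a median of 0.015. Endothelial cells had 3 of 23 higher and 1 lower, and smooth muscle cells 1 of 20 higher and 1 lower.

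Stub1 acts on clients of Hsp70 and Hsp90. A list of 23 genes held Stub1 itself, chaperones and their partners, Hsf1, and the ubiquitin enzymes Ube2d1, Ube2n and Ube2v1. In fibroblasts 2 were lower in HFpEF-scr, Hspa4l (0.742) and Stip1 (0.770), and 0 higher. In HFpEF-FoxO1-sh 3 were higher and 0 lower: the Hsp40 Dnajb1 (69.7 to 106 CPM, 1.53), Hspb1 (701 to 868 CPM, 1.24) and the inducible Hsp70 Hspa1a (770 to 937 CPM, 1.22). These moved with the same immediate early sum, and its part was not tested. For this list in the same comparison, 7 of 23 were higher and 0 lower in macrophages. Endothelial cells had 0 higher and 0 lower, and smooth muscle cells 0 higher and 3 lower. Foxo1, Foxo3, Foxo4 and Foxo6 were not called in fibroblasts in either comparison. In HFpEF-FoxO1-sh over HFpEF-scr, 1 of 3 measured FoxO factors was higher in macrophages and 0 lower. In endothelial cells 1 of 3 was lower and 0 higher, and in smooth muscle cells 0 of 3 were called.

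The share of fibroblasts with at least 1 UMI, after each was thinned to 2000 UMIs, gave the same order of libraries. For Xbp1 it was 28.5% (27.6 to 29.5, exact binomial 95% interval), 23.3% (22.4 to 24.2) and 25.4% (24.5 to 26.2). Before thinning it was 66.3%, 56.1% and 61.7%. For Sdf2l1 the thinned shares were 7.97%, 5.79% and 8.39% (22.9%, 17.8% and 25.9% before), and for Hspa5 69.7%, 62.4% and 68.3% (94.3%, 90.9% and 93.7% before). All 10 genes are used by most cells, so no class served as a measure of free RNA, and its part in these shares was not tested.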

How the data were processed

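The authors deposited UMI counts per gene and barcode, which per the submitters' processing notes come from Cell Ranger 6.1.2, on mm10. The annotation release is not given in the sources used here. A barcode was kept with 500 or more UMIs, 300 or more genes and no more than 20% mitochondrial UMIs, and doublets marked by Scrublet (expected rate 12%, seed 0) were removed (182, 342 and 537). Clustering used scanpy 1.11.5 without the members or listed genes among the variable genes: 30 components, 15 neighbours, Leiden resolution 1.0. Clusters were named from markers of 22 classes, at least 3 among their top 50 genes. A second pass against non-fibroblast cells named 6 clusters, with 51.8% to 56.4% of kept cells. UMIs were summed per class and library. Levels carry exact Poisson and ratios exact conditional binomial 95% intervals (scipy 1.17.1). Log2 ratios used CPM + 1. The calling code was tested on simulated Poisson counts without added variation between libraries. That test bears on the code alone and not on how far pooled libraries vary. Gene positions are from GENCODE M21. Genes named beyond the members were, per list, up to 4 called genes with the widest fibroblast ratio, and the nearest genes by correlation among those with a mean of at least 10 CPM. Hsp90b1, the FoxO factors and the immediate early sum were added after their values were seen. The members and lists were chosen with earlier results of these data known. Of 141 listed genes, 139 were found.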

Additional observations from a re-analysis of the deposited data

Results flagged for a closer look

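A pair of members were called in opposite directions in different classes in HFpEF-FoxO1-sh over HFpEF-scr, and the difference was not tested. The CPM ratio of Xbp1 was 0.407 in B cells (lower), but 1.23 in endocardial, 1.22 in endothelial, 1.44 in lymphatic endothelial and 1.27 in smooth muscle cells (higher). Over all genes in B cells, the median log2 ratio was -0.22, and 63.6% of genes lay below 1. The B cell class joined a pair of clusters whose cell numbers moved. The cluster led by Cd79a and Ms4a1 had 84 and then 20 cells, a median doublet score of 0.238 and 41129 and 37762 CPM of fibroblast markers. The cluster led by Cd79a and Ly6d had 129 and then 704 cells, a score of 0.0128 and 166 and 256 CPM. Within them the Xbp1 ratio was 0.791 (0.478 to 1.26) and 0.893 (0.517 to 1.63), so neither was called.

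The CPM ratio of Atf4 was 1.55 in B cells and 1.53 in dendritic cells (higher), but 0.790 in lymphatic endothelial cells (lower). Within the B cell clusters it was 1.65 (1.17 to 2.30) and 1.21 (0.998 to 1.48).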

How the results depend on the processing

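The count of members higher in HFpEF-FoxO1-sh than in HFpEF-scr over all kept cells, 2, was 1 with a mitochondrial limit of 10%, with CPM of non-mitochondrial UMIs, after thinning to 2000 UMIs and with the mean over cells, and 0 at a ratio of at least 1.5. In fibroblasts it was 1 with the limit of 10%, with CPM of non-mitochondrial UMIs and at 1.5. Apart from the stricter ratio, which leaves the values as they are, Hspa5 lay under 1.2-fold in each of these. The 3 members lower in HFpEF-scr than in Control became 0 at 1.5 in both. A limit of 50%, kept doublets, at least 1000 UMIs per barcode, at least 100 UMIs per gene and Leiden resolution 2.0 kept these counts within 1.5 times. Within that range, Hspa5 still lost its call of lower over all kept cells with the limit of 50%. Of the further values recomputed, 27 moved and 46 stayed the same with the limit of 10%. After thinning 14 moved and 59 stayed. With CPM of non-mitochondrial UMIs these were 10 and 66, and with the limit of 50% 7 and 65. The log2 ratio of Stub1 in B cells for HFpEF-FoxO1-sh over HFpEF-scr, -0.95, was 0.057 within the cluster led by Cd79a and Ms4a1, an alternative chosen after seeing the data. As a CPM ratio, Stub1 was 1.04 (0.660 to 1.60) there. In the cluster led by Cd79a and Ly6d, which held 704 of the HFpEF-FoxO1-sh cells, it was 0.755 (0.485 to 1.21). Neither was called. No paired analysis was possible because each group has 1 library. In endothelial and smooth muscle cells only called members were recomputed singly.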
